A study of Homo sapiens with 6 samples.

Results

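NRF2, encoded by NFE2L2, is the transcription factor that turns on antioxidant and detoxifying enzymes in oxidative and electrophilic stress. The 9 genes described here are NFE2L2, its inhibitor KEAP1 and 7 well-known NRF2 targets, NQO1, HMOX1, GCLC, GCLM, TXNRD1, SRXN1 and OSGIN1. They were chosen by name, with earlier results of these data known. Every probe set on the array with exactly 1 gene symbol that is 1 of these names was used. This gave 20 probe sets for 9 of the 15277 genes measured. The genes lie on chromosomes 2 (NFE2L2), 19 (KEAP1), 16 (NQO1 and OSGIN1), 22 (HMOX1), 6 (GCLC), 1 (GCLM), 12 (TXNRD1) and 20 (SRXN1). Expression was compared in HFL-1, an established fibroblast line from human fetal lung, after infection either with lentivirus carrying HYAL1, a hyaluronidase that degrades hyaluronan, or with lentivirus of the control vector CON335. All cells of both groups were therefore lentivirus-infected HFL-1 cells, exposed to polybrene, and there was no uninfected group. Each group has 3 PrimeView arrays, and the values are log2 expression values after RMA normalization, so that a difference of 1 is a doubling. The sample titles call the replicates biological, but how separate the cultures were was not found in the sources used here, so p-values measure the spread between these samples only.

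HYAL1 itself went against the labels. Its log2 values were 4.81, 4.82 and 4.67 in the arrays labelled HYAL1 overexpression, against 7.48, 7.49 and 7.46 in the arrays labelled control. The difference, HYAL1-labelled minus control-labelled, was -2.71 (standard error 0.0455, limma adjusted p = 7.8e-07), with every HYAL1-labelled array below every control-labelled array (two-sided exact permutation test, p = 0.10, which is the smallest value 3 arrays against 3 can give). In the HYAL1-labelled arrays it did not reach the median of the array's own background controls, 9 probe sets whose median was 6.69 to 6.90 over the 6 arrays. The study's supplementary table of changed genes carries the same HYAL1 values with the headings the other way round, the HYAL1-labelled arrays as NC and the control-labelled arrays as OE. Groups are therefore named by their deposited labels throughout, as the HYAL1-labelled and the control-labelled arrays, and every direction below is a direction by label.

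In resting cells, KEAP1 binds NRF2 and presents it to a CUL3 ubiquitin ligase, so that NRF2 is degraded soon after it is made. Electrophiles and oxidants modify cysteines of KEAP1, and NRF2 then accumulates, pairs with small MAF proteins and binds antioxidant response elements near its targets. The targets rebuild glutathione and reduced thioredoxin, break down heme and reduce quinones. Because NRF2 is controlled largely at the level of the protein, the mRNA of its targets is commonly read as a measure of its activity.

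None of the 9 genes passed the test. With limma and a threshold of 0.05 on the adjusted p, 0 of 9 were called, where 1.66% of all genes were (0.445% higher and 1.21% lower in the HYAL1-labelled arrays). At an unadjusted p under 0.05 there were 3 of 9, against 17.4% of all genes, and all 3 were higher in the HYAL1-labelled arrays, against 9.69% of all genes. These were NQO1, OSGIN1 and GCLC, at 0.16, 0.17 and 0.12 on the log2 scale. Of the 9 differences, 8 were above 0, against 57.3% of all genes, with a median of 0.039, against a median of 0.013 over all genes. TXNRD1 was the exception, at -0.060. The groups did not overlap for 3 of 9 genes, NQO1, GCLC and TXNRD1, against 24.4% of all genes (14.1% higher and 10.3% lower in the HYAL1-labelled arrays). With a prior variance fitted along the mean level (the trend setting), 1 of 9 was called, NQO1, against 6.71% of all genes. The standard deviations within a group ran from 0.0104 to 0.0943.

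**Figure D1:**
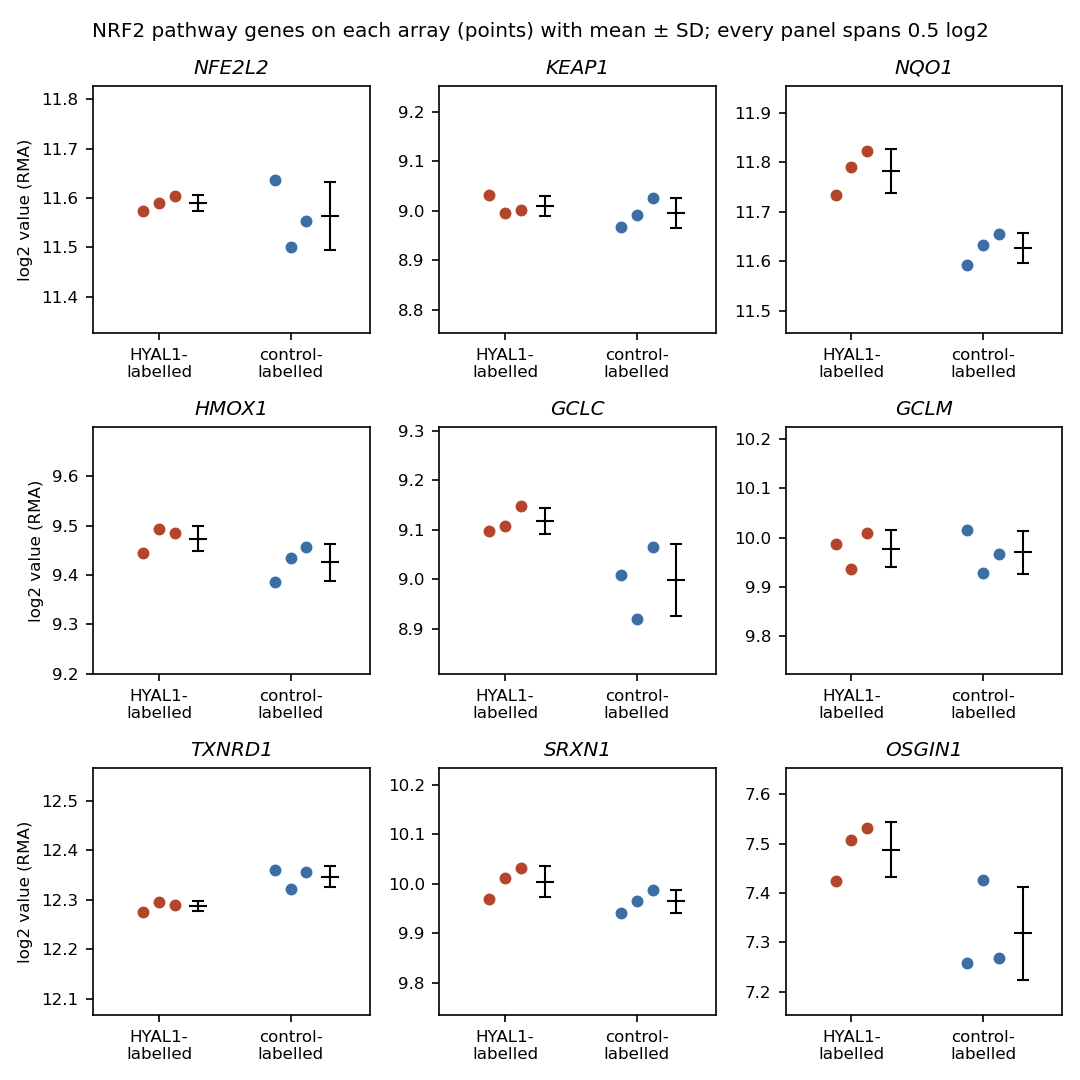
Log2 values (RMA) of the 9 NRF2 pathway genes on each of the 3 HYAL1-labelled (left, red) and 3 control-labelled arrays (right, blue), with the mean ± SD beside the points. Every panel spans 0.5 on the log2 scale, and the groups lie apart for NQO1, GCLC and TXNRD1 alone.

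The antioxidant response element has the core TGACNNNGC, where N is any base, and NRF2 with a small MAF protein also binds the related TGANTCAGC. Both were searched on both strands in windows from 250 bases before to 50 bases after each gene start in RefSeq (GRCh38.p14), which hold 8 of the 9 genes in 11 windows. HMOX1 was not in the table of windows. TGACNNNGC was found in 4 of the 11 windows, of GCLM, TXNRD1 (both starts) and the second of 2 starts of KEAP1, and in 13.3% of all 35116 windows. TGANTCAGC was found in 1 of the 11, that of OSGIN1, and in 1.36% of all windows, and the 2 patterns overlap only where the sequence is TGACTCAGC. The 150 bases before the start are shown for NQO1 and OSGIN1, the genes with the widest differences of the 9, for TXNRD1, the only gene with lower values in the HYAL1-labelled arrays, and for GCLM, whose difference was smallest. They are written 5′ to 3′ on the strand of the gene, with pattern matches in capitals, and a match on the opposite strand appears as its reverse complement.
NQO1, chr16:69726561-69726710, minus strand: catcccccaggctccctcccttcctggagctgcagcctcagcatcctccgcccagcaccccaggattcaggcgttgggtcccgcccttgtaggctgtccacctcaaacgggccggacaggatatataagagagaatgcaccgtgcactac
OSGIN1, chr16:83953090-83953239, plus strand: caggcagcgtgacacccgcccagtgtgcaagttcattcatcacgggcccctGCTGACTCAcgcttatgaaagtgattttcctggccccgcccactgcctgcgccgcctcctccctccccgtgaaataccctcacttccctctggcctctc
GCLM, chr1:93909431-93909580, minus strand: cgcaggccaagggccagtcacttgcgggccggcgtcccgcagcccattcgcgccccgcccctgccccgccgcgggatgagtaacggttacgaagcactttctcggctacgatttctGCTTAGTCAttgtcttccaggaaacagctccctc
TXNRD1 first start, chr12:104215629-104215778, plus strand: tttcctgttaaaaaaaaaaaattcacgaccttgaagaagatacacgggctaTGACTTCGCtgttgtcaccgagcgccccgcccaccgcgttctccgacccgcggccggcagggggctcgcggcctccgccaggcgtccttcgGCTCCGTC
TXNRD1 second start, chr12:104286882-104287031, plus strand: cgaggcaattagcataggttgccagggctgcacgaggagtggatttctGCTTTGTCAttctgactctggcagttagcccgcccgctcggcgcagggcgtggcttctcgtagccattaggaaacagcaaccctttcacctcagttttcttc
The match of OSGIN1 begins 99 bases before the start. That of GCLM begins 34 bases before the start and those of TXNRD1 begin 99 and 8 bases before its first start and 102 before its second. The match nearest the first start of TXNRD1 runs 1 base past the stretch shown. A match is a description of the letters, and elements further from the start would lie outside these windows. NQO1 has no match in its window.

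The regulators differed by less than the spread of their arrays. NFE2L2 had log2 values of 11.57, 11.59 and 11.60 in the HYAL1-labelled arrays, against 11.64, 11.50 and 11.55 in the control-labelled arrays. The HYAL1-labelled values lay inside the control-labelled range, and the difference was 0.025 (standard error 0.0411, 95% interval -0.071 to 0.12, limma adjusted p = 0.80). The second probe set of NFE2L2 gave 0.037 (adjusted p = 0.69 among all probe sets). KEAP1, the adaptor that marks NRF2 for degradation, had 9.033, 8.995 and 9.002 in the HYAL1-labelled arrays, against 8.968, 8.991 and 9.027 in the control-labelled arrays. These ranges also overlapped, with a difference of 0.015 (standard error 0.0319, 95% interval -0.060 to 0.089, limma adjusted p = 0.86). The arrays thus leave room for differences of up to 0.12 for NFE2L2 and 0.089 for KEAP1 toward the HYAL1-labelled side.

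NQO1, which reduces quinones to hydroquinones and is among the most widely used readouts of NRF2, had the lowest p of the 9 genes. Its log2 values were 11.73, 11.79 and 11.82 in the HYAL1-labelled arrays, against 11.59, 11.63 and 11.65 in the control-labelled arrays. Every HYAL1-labelled array was above every control-labelled array, by a difference of means of 0.16 or 1.11-fold (standard error 0.0363, 95% interval 0.070 to 0.24, limma adjusted p = 0.093). A second probe set, 11717568_s_at, showed a wider gap, and its suffix marks probes that may also read related transcripts. The probe sets that stand for NFE2L2, TXNRD1 and SRXN1 carry the same suffix. This second probe set of NQO1 had 11.26, 11.24 and 11.23 in the HYAL1-labelled arrays, against 11.00, 11.01 and 11.06 in the control-labelled arrays. Its difference was 0.22 or 1.17-fold (standard error 0.0329), and it was the only 1 of the 20 probe sets to pass limma's test among all probe sets of the array (adjusted p = 0.031), where 1.42% passed (0.346% higher and 1.08% lower in the HYAL1-labelled arrays). At gene level NQO1 was called in 5 of 15 alternative settings. Its adjusted p was 0.019 by its probe set of lowest p, where 729 of 15277 genes were called. That probe set is chosen by the comparison it is then tested in, which lowers the p. The adjusted p was 0.027 by the mean of its probe sets (360 genes called) and 0.034 with the dimmest 30% of genes left out (673 of 10694 called). It was 0.0012 with the trend setting (1025 called) and 0.00068 with that trend fitted robustly (1078 called). With 1 array left out, NQO1 passed in none of 6 fits (adjusted p 0.15 to 0.27), nor did its second probe set (0.089 to 0.14), which also missed it with the replicate block (0.11). At gene level these settings called few genes at all. The counts were 15 to 52 of 15277 with 1 array left out and 1 with the replicate block.

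HMOX1, the inducible heme oxygenase that turns heme into biliverdin, iron and carbon monoxide, differed less. Its log2 values were 9.45, 9.49 and 9.48 in the HYAL1-labelled arrays, against 9.39, 9.43 and 9.46 in the control-labelled arrays. The highest control-labelled array lay within the HYAL1-labelled range, and the difference was 0.048 (standard error 0.0339, 95% interval -0.031 to 0.13, limma adjusted p = 0.52). All 3 probe sets of HMOX1 stood on the HYAL1-labelled side, at 0.029 to 0.051, with overlapping groups in each.

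GCLC and GCLM, the catalytic and the modifier subunit of the ligase that carries out the first and rate-limiting step of glutathione synthesis, are given side by side. GCLC had log2 values of 9.10, 9.11 and 9.15 in the HYAL1-labelled arrays, against 9.01, 8.92 and 9.07 in the control-labelled arrays. The groups lay apart, although the control-labelled arrays were spread more widely, and the difference was 0.12 (standard error 0.0436, 95% interval 0.018 to 0.22, limma adjusted p = 0.23). The other 3 probe sets of GCLC gave 0.0090 to 0.13 with overlapping groups, and 1 of them lay below the background median on all arrays. GCLM had 9.99, 9.94 and 10.01 in the HYAL1-labelled arrays, against 10.02, 9.93 and 9.97 in the control-labelled arrays. These overlapped almost fully, with a difference of 0.0074 (standard error 0.0373, 95% interval -0.080 to 0.095, limma adjusted p = 0.94) whose sign turned under median centring and array weights. Its other probe set gave -0.11 but lay below the background median on every array. Whether GCLC and GCLM differ in their response was not tested.

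TXNRD1, the cytosolic selenoprotein that keeps thioredoxin reduced, was the 1 gene of the 9 with lower values in the HYAL1-labelled arrays. Its log2 values were 12.28, 12.30 and 12.29 in the HYAL1-labelled arrays, against 12.36, 12.32 and 12.36 in the control-labelled arrays. The groups did not overlap and the arrays of each group lay close together, but the difference was small, at -0.060 (standard error 0.0297, 95% interval -0.13 to 0.010, limma adjusted p = 0.35). The other 2 probe sets gave -0.068 and -0.091, so that all 3 were on the control-labelled side with groups apart in each. None of the 3 passed among all probe sets (adjusted p 0.21 to 0.38), and 11750416_a_at, at -0.091, passed with the trend setting (adjusted p = 0.020), where 6.45% of all probe sets did.

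**Figure D2:**
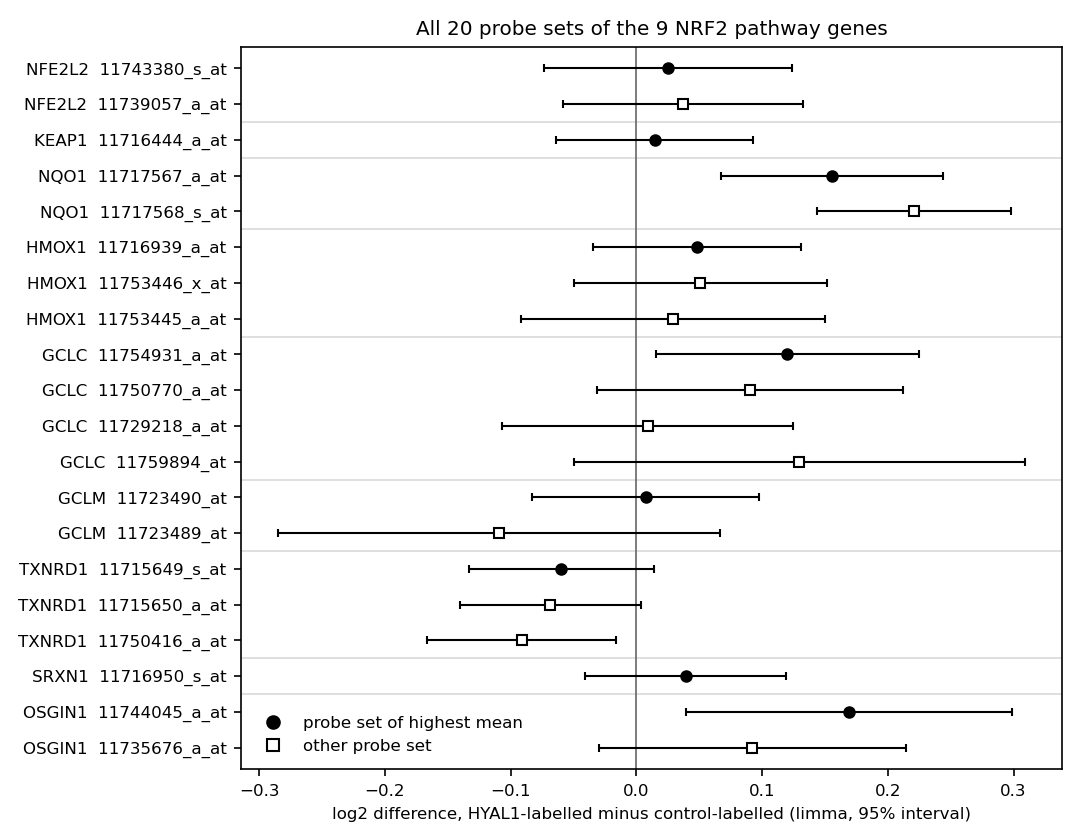
Differences of all 20 probe sets of the 9 genes, HYAL1-labelled minus control-labelled, on the log2 scale with 95% intervals from limma, the filled circle marking the probe set of highest mean. The 2 of NQO1 lie farthest above 0 relative to their intervals, and the 3 of TXNRD1 lie below 0.

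SRXN1 and OSGIN1 complete the targets. SRXN1, sulfiredoxin, which repairs overoxidised peroxiredoxins, had log2 values of 9.97, 10.01 and 10.03 in the HYAL1-labelled arrays, against 9.94, 9.97 and 9.99 in the control-labelled arrays. The groups overlapped, with a difference of 0.039 (standard error 0.0326, 95% interval -0.037 to 0.12, limma adjusted p = 0.58). OSGIN1, an oxidative stress-induced growth inhibitor, had 7.43, 7.51 and 7.53 in the HYAL1-labelled arrays, against 7.26, 7.43 and 7.27 in the control-labelled arrays. A single control-labelled array reached the lowest HYAL1-labelled one, and the difference of 0.17 or 1.12-fold was the widest of the 9 but also the least precise (standard error 0.0545, 95% interval 0.041 to 0.30, limma adjusted p = 0.18). Its second probe set gave 0.092 with overlapping groups. Across the 9 genes, 16 of the 20 probe sets had a difference above 0 and 4 below, but several probe sets of 1 gene are repeated readings of it. The share over all probe sets was not computed, and over all genes 57.3% of the differences were above 0. At an unadjusted p under 0.05 there were 5 of the 20, against 17.1% of all probe sets, with 4 higher and 1 lower in the HYAL1-labelled arrays, against 8.82% and 8.28%. The groups lay apart in 6 of the 20, against 23.9% of all probe sets, with 3 higher and 3 lower, against 13.2% and 10.7%. With the trend setting 3 of the 20 were called, both of NQO1 higher (2.52% of all probe sets) and 1 of TXNRD1 lower (3.93%). Of the 7 genes with several probe sets, GCLM alone had them on both sides.

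The genes whose profile over the 6 arrays was most like that of NQO1, by the root mean square distance between mean-centred log2 values, were CTSA (0.0078), VEGFB (0.0080) and MRM3 (0.017). For TXNRD1 they were ADI1 (0.0056), MRGPRD (0.0064) and ANXA1 (0.0067). They were sought among all 15277 genes on the arrays that also show the group difference, so a difference of like size and direction is part of the likeness.

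Beyond the 9 genes, 103 genes of the redox system were listed in 8 groups by role, and 87 of them were measured. Of these 87, 1 passed limma's test, against 1.66% of all genes, and it was higher in the HYAL1-labelled arrays. At an unadjusted p under 0.05, 13 were higher and 10 lower in the HYAL1-labelled arrays, against 9.69% and 7.72% of all genes. The median difference of the 87 was 0.017, close to that of all genes. With the trend setting 7 were called in each direction, against 2.81% of all genes higher and 3.90% lower. The counts by role that follow are to be read against the same shares of all genes, 17.4% at an unadjusted p under 0.05 in either direction and 57.3% with a difference above 0. A miss with the replicate block or with 1 array left out is likewise to be read against all genes. Of these, the block called 1 and the fits with 1 array left out 15 to 52, against 253 in the main setting.

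The gene that passed was IDH1, the cytosolic isocitrate dehydrogenase that makes NADPH. It had log2 values of 10.18, 10.20 and 10.21 in the HYAL1-labelled arrays, against 10.01, 9.95 and 10.03 in the control-labelled arrays. IDH1 rose in the HYAL1-labelled arrays by 0.20 or 1.15-fold (standard error 0.0343, limma adjusted p = 0.043), with all 3 of its probe sets at 0.19 to 0.20. Tested among all probe sets, none of the 3 passed (adjusted p 0.0505 to 0.0531). The call ended with median centring (adjusted p = 0.054), with the replicate block (0.12) and when any 1 of the 6 arrays was left out (0.10 to 0.16). With 1 array left out the difference itself stayed at 0.17 to 0.22. The other 4 measured genes of NADPH supply had differences from 0.0078 to 0.061 and none passed.

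Among the partners and regulators of NRF2, 0 of 11 measured genes passed (3 at an unadjusted p under 0.05, 1 higher and 2 lower), and 7 of the 11 had differences below 0. NFE2L3, a relative of NFE2L2 named with its value known, was at -0.18 with groups apart (limma adjusted p = 0.13, and 0.020 with the trend setting). MAFF, a small MAF protein that pairs with NRF2, was at -0.17, with 7.46, 7.47 and 7.45 in the HYAL1-labelled arrays, against 7.66, 7.64 and 7.57 in the control-labelled arrays (limma adjusted p = 0.068). SQSTM1, the autophagy receptor p62, which binds KEAP1 and is itself an NRF2 target, was at 0.11, with 12.13, 12.14 and 12.15 in the HYAL1-labelled arrays, against 12.02, 12.03 and 12.04 in the control-labelled arrays (limma adjusted p = 0.12). MAFF and SQSTM1 thus stood on opposite sides, with groups apart in both, although the second probe set of MAFF, at -0.13, had overlapping groups (adjusted p = 0.34 among all probe sets). All 5 probe sets of SQSTM1 were on the HYAL1-labelled side with groups apart, at 0.11 to 0.21. The probe sets that stand for MAFF and SQSTM1 carry the suffix x_at, for probes that may also read unrelated sequences. With the dimmest 30% of genes left out both passed (adjusted p = 0.022 for MAFF and 0.045 for SQSTM1), as they did with the trend setting (0.024 and 0.0018). Neither passed with the replicate block (0.13 and 0.18) or with any 1 array left out (0.11 to 0.20 and 0.18 to 0.30).

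In glutathione synthesis and recycling, 0 of 10 measured genes passed (3 at an unadjusted p under 0.05), and the median was -0.0066. SLC3A2, the heavy chain of the cystine and glutamate exchanger, was at -0.16, with 9.53, 9.55 and 9.51 in the HYAL1-labelled arrays, against 9.62, 9.70 and 9.73 in the control-labelled arrays (limma adjusted p = 0.11). All 7 of its probe sets were on the control-labelled side with groups apart. Its light chain SLC7A11, a well-known NRF2 target, was at -0.073 (adjusted p = 0.26) with groups apart, and is named outside the rule for naming genes, with its value known. GGT5, a gamma-glutamyl transferase, was at 0.079 (adjusted p = 0.25). SLC3A2 passed with the dimmest 30% of genes left out (adjusted p = 0.043) and with the trend setting (0.0068). It did not pass with the replicate block (0.17) or with any 1 array left out (0.088 to 0.25).

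The thioredoxin and peroxiredoxin group also had 0 of 12 measured genes past the threshold (4 at an unadjusted p under 0.05), with a median of -0.039. MSRB3 and MSRA, which reduce oxidised methionine, were at -0.13 (limma adjusted p = 0.14) and -0.10 (limma adjusted p = 0.16). MSRB3 had 10.35, 10.40 and 10.36 in the HYAL1-labelled arrays, against 10.53, 10.44 and 10.52 in the control-labelled arrays, and all 4 of its probe sets were on the control-labelled side with groups apart. Both genes passed with the trend setting (adjusted p = 0.010 and 0.047). Neither passed with the replicate block (0.22 for each) or with any 1 array left out (0.14 to 0.32 and 0.20 to 0.39).

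Of 8 measured superoxide dismutases, catalase and glutathione peroxidases, 0 passed (1 at an unadjusted p under 0.05) and 7 had differences above 0, although 2 of the 8 lay below the background median on all arrays. The exception was GPX8, a peroxidase of the endoplasmic reticulum, at -0.10, with 10.26, 10.25 and 10.26 in the HYAL1-labelled arrays, against 10.38, 10.31 and 10.39 in the control-labelled arrays (limma adjusted p = 0.18). Its second probe set was at -0.21 and passed among all probe sets (adjusted p = 0.039). At gene level GPX8 passed by that probe set (adjusted p = 0.025), the one of lowest p and so chosen by the comparison it is tested in. It also passed by the mean of both (0.0499) and with the trend setting (0.028). GPX8 did not pass with the replicate block (0.22) or with any 1 array left out (0.15 to 0.39). CAT, catalase, was at 0.071 (adjusted p = 0.36).

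Of 7 measured genes of heme and iron handling, 0 passed (2 at an unadjusted p under 0.05). BLVRB, a flavin reductase that also reduces some isomers of biliverdin, was at 0.16 (limma adjusted p = 0.11). It had 9.33, 9.30 and 9.33 in the HYAL1-labelled arrays, against 9.10, 9.20 and 9.20 in the control-labelled arrays. The adjusted p was 0.043 with the dimmest 30% of genes left out and 0.0090 with the trend setting. BLVRB did not pass with the replicate block (0.17) or with any 1 array left out (0.15 to 0.26). FECH, ferrochelatase, which inserts iron to make heme, was at 0.069 (limma adjusted p = 0.28). BLVRA, the reductase of the biliverdin that heme oxygenase makes, is named with its value known and was at 0.053 (limma adjusted p = 0.45).

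Of 27 measured genes of detoxification and conjugation, 0 passed (7 at an unadjusted p under 0.05), against 17.4% of all genes, and 19 had differences above 0, against 57.3% of all genes, with a median of 0.032. Of the 27, 8 lay below the background median on all arrays. With the trend setting 4 were called, all higher, against 2.81% of all genes. They were PTGR1 and MGST3, named with their values known (adjusted p = 0.0057 and 0.0065), AKR1C1 (0.04998) and AKR1B10. PTGR1, MGST3 and AKR1C1 lay above the background median on all arrays. AKR1B10, an aldo-keto reductase that is a strong NRF2 target in human cells, was at 0.21, with 6.99, 7.01 and 7.05 in the HYAL1-labelled arrays, against 6.70, 6.79 and 6.92 in the control-labelled arrays (limma adjusted p = 0.12). These levels lie near the background median, and the gene passed with the trend setting (adjusted p = 0.035). It also passed by its other probe set (0.036), the one of lowest p and so chosen by the comparison it is tested in. That probe set carries the suffix x_at and was above the background median on only 1 of the 6 arrays. AKR1B10 did not pass with any 1 array left out (adjusted p 0.092 to 0.28). AKR1C2, a related reductase below the background median on all arrays, was at 0.17 (adjusted p = 0.13). AKR1C1 and AKR1C3, also named with their values known, were at 0.11 (adjusted p = 0.16) and -0.019 (adjusted p = 0.90). The AKR1C genes are close in sequence, so their probe sets may read more than 1 of them.

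**Figure D3:**
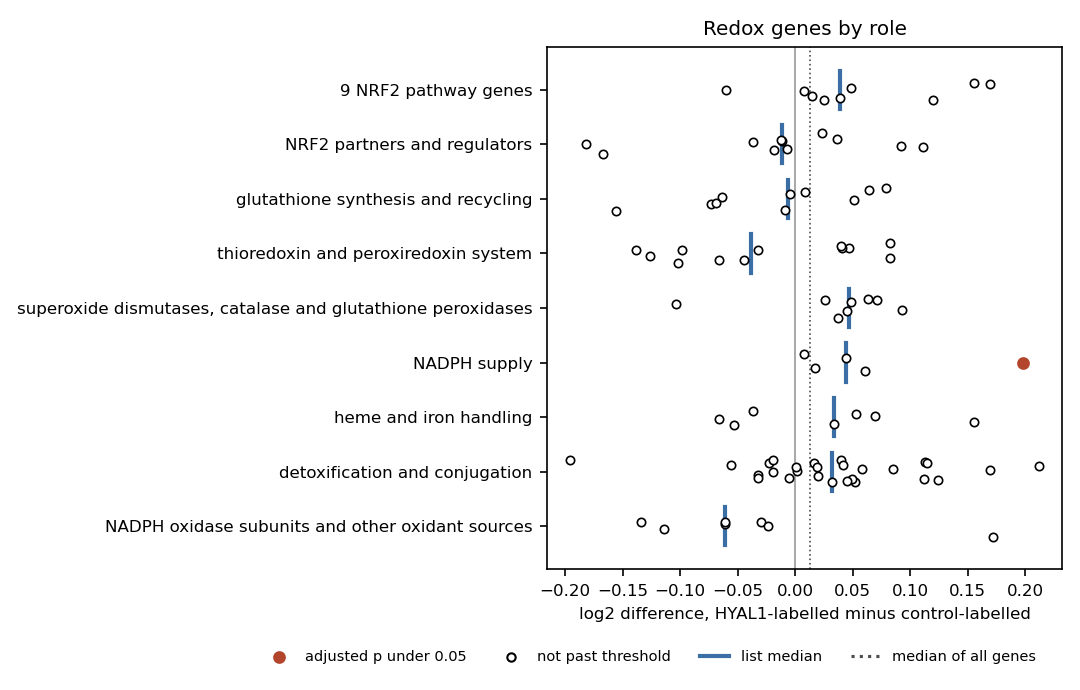
Log2 differences (HYAL1-labelled minus control-labelled) of the 9 NRF2 pathway genes and of the 87 other measured redox genes by role, 1 point per gene, with list medians as blue bars and the median of all genes, 0.013, as a dotted line. IDH1 is the only filled point, the 1 gene with an adjusted p under 0.05.

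The plot of adjusted p by setting shows the 4 of the 9 genes with the lowest p. NQO1 crossed the threshold in the settings named above, whereas OSGIN1 (lowest adjusted p 0.054), GCLC (0.057) and TXNRD1 (0.065) did so in none of the 15 alternatives. The lowest for these 3 came with the robust trend.

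**Figure D4:**
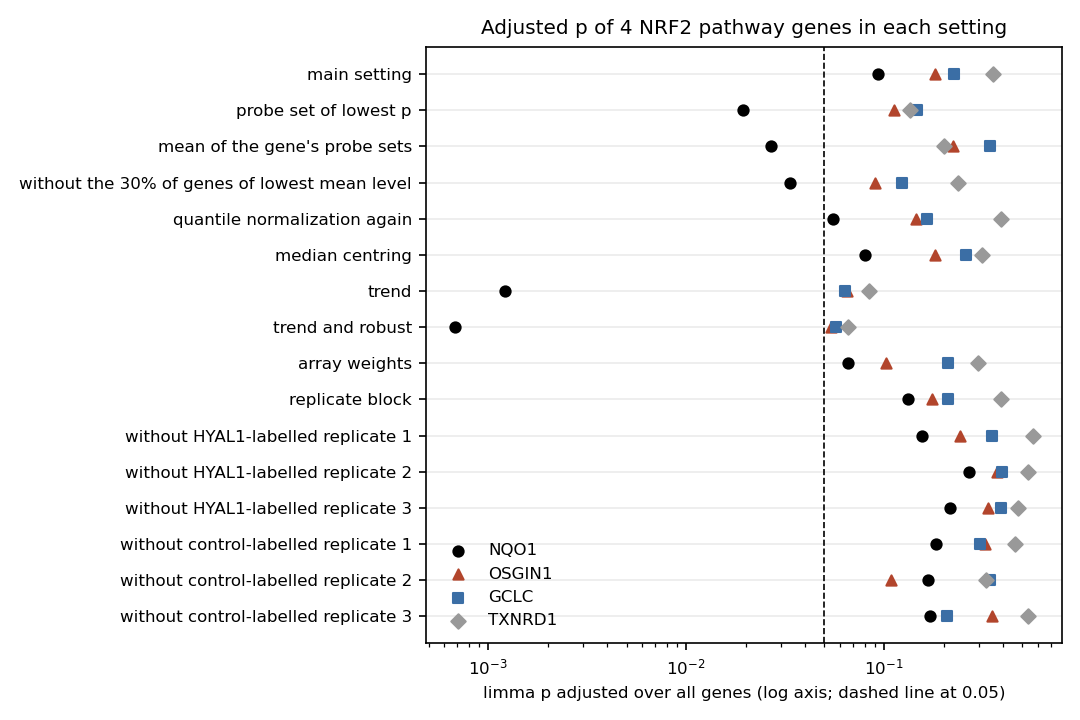
Adjusted p from limma (log axis, dashed line at 0.05) of NQO1, OSGIN1, GCLC and TXNRD1 in the main setting and 15 alternatives. NQO1 lies left of the line in 5 alternatives, the other 3 genes in none.

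The labelled cell type was checked on its markers. All 12 fibroblast markers lay above the background median on all arrays, whereas MYH11 and DES of smooth muscle, PECAM1, CDH5 and VWF of endothelium and SFTPC and SFTPB of lung epithelium did not. Above it on all arrays were 1 of 5 measured epithelial, 1 of 4 endothelial, 1 of 2 leukocyte and 2 of 4 smooth muscle markers. Summed on the linear scale and returned to log2, the smooth muscle markers ran from 10.14 to 10.21 in the HYAL1-labelled arrays, against 10.28 to 10.41 in the control-labelled arrays, and the fibroblast markers from 16.05 to 16.06 in the HYAL1-labelled arrays, against 16.08 to 16.11 in the control-labelled arrays. The epithelial markers ran from 9.03 to 9.06 in the HYAL1-labelled arrays, against 9.11 to 9.15 in the control-labelled arrays. The endothelial markers ran from 8.84 to 8.86 in the HYAL1-labelled arrays, against 8.87 to 8.96 in the control-labelled arrays, and the leukocyte markers from 8.12 to 8.14 in the HYAL1-labelled arrays, against 8.14 to 8.15 in the control-labelled arrays. Below the background median on all arrays were 3 of the 5 epithelial, 3 of the 4 endothelial and 1 of the 2 leukocyte markers. The sums of these 3 lists thus hold much background signal, and their differences are limited by it. COL1A1, at -0.27 (limma adjusted p = 0.015), and CNN1, at -0.37 (limma adjusted p = 0.028), fell in the HYAL1-labelled arrays. The part of these shifts in the differences of the NRF2 pathway genes was not tested, and in a bulk array a change in the cells present and a change in RNA per cell cannot be told apart.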

How the data were processed

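Total RNA of HFL-1 fibroblasts, 3 samples labelled HYAL1 overexpression and 3 labelled control vector, was profiled on PrimeView arrays. The authors deposited log2 values, which per the labels were made with RMA (background correction, quantile normalization and probe set summary) in Affymetrix Power Tools. Its version was not given in the sources used here. RMA tends to compress fold changes, most of all for dim probe sets. Of 39341 probe sets, 36097 have 1 gene symbol in the platform annotation. The probe set of HYAL1 has none there and was found by its values in the study's supplementary table (tolerance 0.001 on the log2 scale). A gene was represented by its probe set of highest mean, which gave 15277 genes. Array medians were 6.97 to 7.01, arrays correlated at r = 0.998 to 0.999 across probe sets, which are not independent replicates, and the number of arrays limits the precision.

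The comparison used limma 3.58.1 in R 4.3.3 with a single prior variance (3.25 degrees of freedom). P-values were adjusted over all genes by the Benjamini-Hochberg method, with a threshold of 0.05. An exact permutation test was added for HYAL1 alone. The fit was tested on simulated data. The alternatives were other probe set rules, leaving out the dimmest 30% of genes, median centring, a second quantile normalization, array weights, a plain or robust trend in the prior variance, leaving out 1 array at a time and the replicate block. Background correction could not be varied from these values. The unpaired test named in a figure legend was not run. The genes named are the 9, HYAL1 and, in each list, the genes past the threshold or, where none passed, the 2 of lowest adjusted p. Members and lists were chosen with earlier results of these data known. Figures used Python 3.11.15 and matplotlib 3.10.9.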

Additional observations from a re-analysis of the deposited data

How the results depend on the processing

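HYAL1 kept its direction and call in all 13 alternatives (-2.73 to -2.66 on the log2 scale). Against 253 of 15277 genes called, the count was 729 by the probe set of lowest p, 1025 with the trend and 1078 with the robust trend. With the dimmest 30% of genes left out it was 673, of the 10694 genes still tested. It was 406 with array weights and 15 to 52 with 1 array left out. With the replicate block it was 1. Same-numbered arrays deviated from their group means with r = 0.063, -0.023 and 0.24 across genes, so the numbers were not taken to pair the arrays, and not every array correlated best with its own number. Of the 9 NRF2 pathway genes, 1 (NQO1) was called by the probe set of lowest p, by the mean of probe sets, with the dimmest 30% of genes left out, with the trend and with the robust trend, against 0 in the main setting and 0 to 0 with 1 array left out. Of their 20 probe sets, 1 was called in the main setting, 3 with the trend, 0 with the replicate block and 0 to 0 with 1 array left out. Of the 87 other redox genes, 1 was called in the main setting, 5 by the probe set of lowest p and 3 by the mean of probe sets. The trend called 14 of them and the robust trend 15. Median centring, the replicate block and each fit with 1 array left out called 0. With the dimmest 30% of genes left out 5 were called, but some of the 87 were then not tested, MAOB and DUOX1 among them. GCLM changed sign by its probe set of lowest p (-0.11), by the mean of probe sets (-0.051), with median centring (-0.00098) and with array weights (-0.0070), and ranged from -0.014 to 0.030 with 1 array left out. NFE2L2 ranged from -0.0062 to 0.062 with 1 array left out. The other 7 genes kept their direction in all alternatives. MAOB and DUOX1 gave no value with the dimmest 30% of genes left out. The cause of the changed counts was not tested. Differences near or below the background median are limited by signal.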

Other observations

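Sources of oxidants, the counterpart of the enzymes above, were also listed. Of 7 measured NADPH oxidase subunits and other oxidant-producing enzymes, 0 were called by limma (2 had an unadjusted p under 0.05), and 6 had differences below 0, against 42.7% of all genes. Of the 7, 6 lay below the background median on all 6 arrays, MAOB, DUOX1, XDH, NOX4, CYBB and MAOA, where differences are limited by signal. CYBA, the p22phox subunit, lay above it on all 6 arrays, is named with its value known and was at -0.030 (limma adjusted p = 0.76). MAOB, a mitochondrial monoamine oxidase that releases hydrogen peroxide, was at 0.17 (limma adjusted p = 0.18) and DUOX1, a dual oxidase, at -0.13 (limma adjusted p = 0.27). The 3 probe sets of DUOX1 did not share a direction.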
